A study of Homo sapiens with 12 samples.

Results

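The genes of the proteasome and of its assembly factors were followed in papillary thyroid cancer cell lines with and without Y15. The members were all genes whose symbol is PSM, a letter of A to G and a number, except PSMB8, PSMB9 and PSMB10, the subunits of the immunoproteasome. This rule gave 41 of the 20044 genes with a probe, of which 38 were above background and were tested among 12378 genes in all. PSMA8, PSMB11 and PSMF1 were above background on 0 of 12 arrays, with highest log2 signals of 6.66, 6.82 and 6.81, and were not tested. PSMA7, PSMC5, PSMD7 and PSMD13 had no probe annotated to their symbol alone and were not analysed here.
Illumina bead arrays measured expression in TPC1 cells with Y15 and untreated, BCPAP cells with Y15 and untreated, and K1 cells with Y15 and untreated, with 2 arrays in each of these 6 groups. All 3 are established papillary thyroid cancer lines, and Y15 (1,2,4,5-benzenetetraamine tetrahydrochloride) is a small molecule inhibitor of focal adhesion kinase (FAK). In the series' design the cells received 10 µM Y15 for 24 hours, while the methods state the dose and the duplicate plates for another line. Untreated cells are labelled as given no agent, and nothing says whether the duplicates came from separate cultures, so that p-values measure only the spread between these samples.

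The proteasome degrades proteins that carry ubiquitin. Its core particle is a barrel of alpha rings (PSMA), which gate the entry, and beta rings (PSMB), which hold the cutting sites. The regulatory particle caps the barrel with a base of ATPases (PSMC) and scaffold or receptor subunits, and with a lid that removes ubiquitin. PSME proteins are other activators of the core, while the PSMG proteins and PSMD5, PSMD9 and PSMD10 are chaperones that help assemble the particles and are not part of the mature complex. Cells are known to raise proteasome genes together when the proteasome is impaired, through the transcription factor NFE2L1.

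Values below are log2 signals after quantile normalization, which sets all arrays to 1 common distribution. A gene was called higher or lower at a Benjamini-Hochberg adjusted p under 0.05 from limma, over all 12378 genes. On an array 16004 to 20376 probes were above background, and the dimmest was replicate 2 of untreated BCPAP, with a mean signal of 215.4 against 280.8 to 393 on the others. The Y15 replicates of K1 correlated least (r = 0.979 across genes, against 0.993 to 0.998 in the other groups). Of the markers checked, PAX8, FOXE1, KRT8 and KRT18 were above background in every group, while TG, TSHR, SLC5A5, DIO2 and CDH1 were in none. Of leukocyte and endothelial markers CD68 alone was above background. Whole cultures were measured, so that less RNA per cell and fewer cells expressing a gene cannot be told apart.

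Of the 27 subunits of the core and regulatory particle, 15 were called higher with Y15 and 1 lower in TPC1 cells (15.3% and 16.1% of all genes tested were), and 12 were called higher and 0 lower in K1 cells (4.62% and 5.93%). In BCPAP cells 0 were called higher and 3 lower (8.65% and 7.6%). The median log2 change of these subunits was 0.35 in TPC1 cells, -0.12 for BCPAP and 0.35 for K1. Over all genes tested it was 0 in TPC1 cells, 0.01 for BCPAP and 0.00 for K1. The medians of the 7 assembly chaperones were -0.05 in TPC1 cells, 0.07 for BCPAP and -0.02 for K1. Of these 6 medians, those of the subunits in TPC1 and BCPAP changed sign with the scaling of the arrays. With median centring over all probes in place of quantile normalization the subunits stood at -0.10 in TPC1 cells, 0.45 for BCPAP and 0.11 for K1, where all genes tested had shifted by -0.21, 0.24 and -0.10 in the same lines. The distance between subunits and chaperones is taken within the arrays. It was 0.41 in TPC1 and 0.38 in K1, and with median centring over all probes 0.34 in TPC1 and 0.36 in K1. Without replicate 1 of K1 Y15 the K1 distance was 0.16, and without replicate 2 it was 0.59. In BCPAP it was -0.19, and -0.02 with median centring. The part of the brightness of the arrays in these values was not tested.

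**Figure D1:**
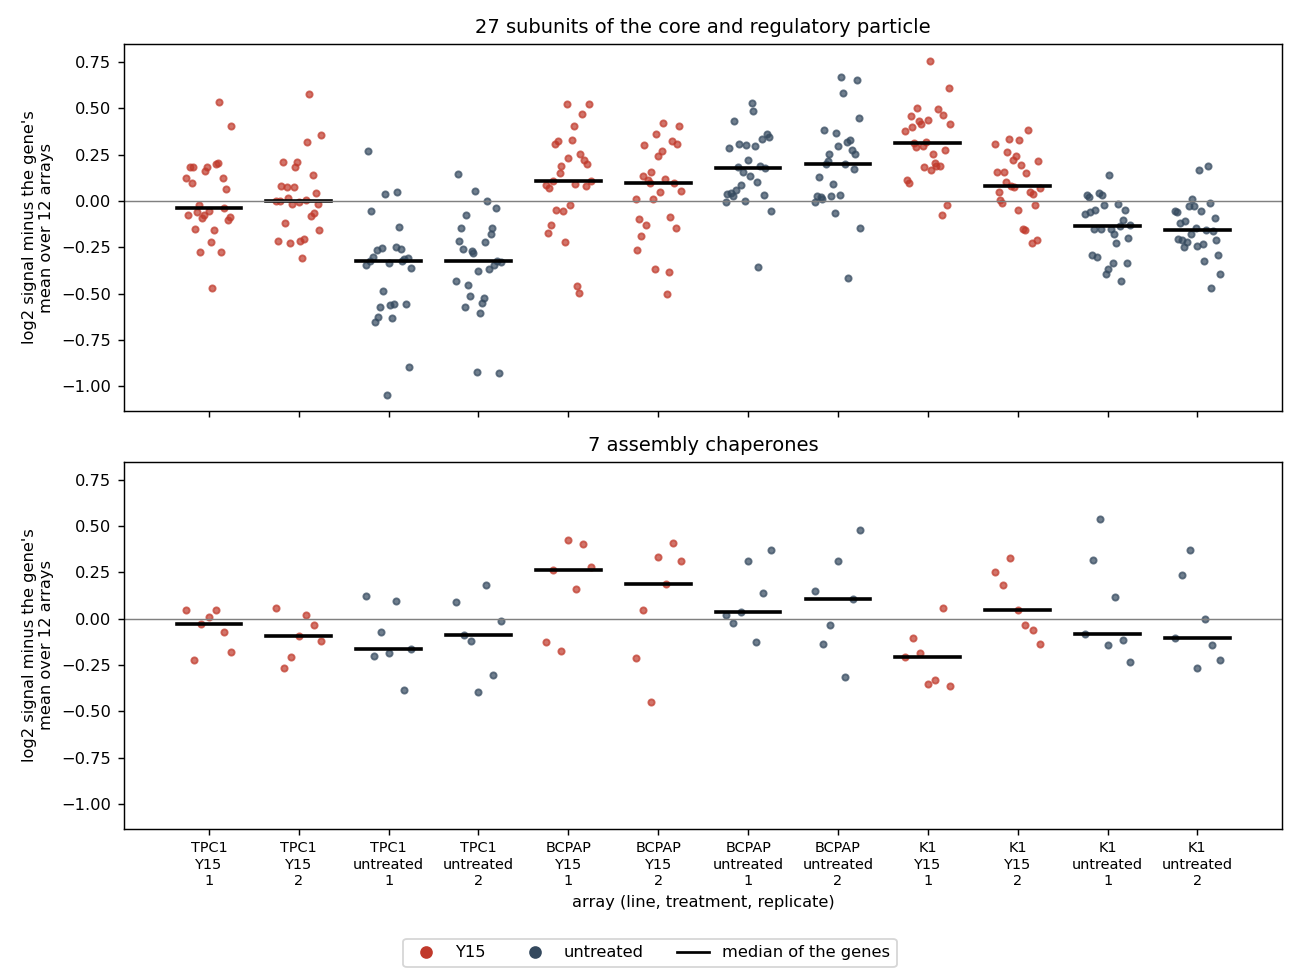
Log2 signal of each proteasome gene minus its own mean over the 12 arrays (vertical axis), with a point per gene and a black line at the median, for core and regulatory subunits (top) and assembly chaperones (bottom), by array. The subunits lie lowest on the untreated TPC1 arrays and higher on both Y15 arrays of TPC1 and K1 than on the untreated arrays of the line, with K1 replicate 1 above replicate 2.

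Over all 38 members, relative to the mean of the untreated arrays of the line, the median was 0.30 on both Y15 arrays of TPC1. It was -0.10 and -0.09 on the Y15 arrays of BCPAP. On the Y15 arrays of K1 it was 0.37 and 0.18, so that replicate 1 of K1 carried more of the difference than replicate 2. The median of all genes tested lay between -0.01 and 0.01 on these arrays.

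Over all classes, 18 of 38 members were called higher with Y15 and 2 lower in TPC1 cells (15.3% and 16.1% of all genes). The change was positive for 31 members (49.9% of all genes tested). Both Y15 arrays lay above both untreated arrays for 30 members (35.9% of all genes) and below them for 5 (36.7% of all genes). Median centring over all probes gave 1 higher call and 2 lower (1.82% and 19.3% of all genes). With centring over probes above background on all arrays, 11 and 2 were (17.7% and 11.5%). With the 4 TPC1 arrays alone 27 and 2 were called, where 46.2% of all genes were called in either direction. With array weights 27 and 2 were called (22.8% and 23.5% of all genes). The median change of the members was 0.27 without untreated replicate 1 and 0.30 without Y15 replicate 2.
In K1 cells 12 members were called higher and 0 lower, against 4.62% and 5.93% of all genes tested. The change was positive for 32 members (51.1% of all genes). Both Y15 arrays lay above both untreated ones for 30 (25.4% of all genes) and below them for 5 (25.2%). At an unadjusted p under 0.05 with at least a 1.2-fold change, 22 were higher and 1, PSMD10, was lower (8.64% and 9.73% of all genes). The K1 calls rest on the spread shared with the other lines. With the 4 K1 arrays alone limma called 0 members and 0 of all 12378 genes, with 17 members and 16.1% of all genes at an unadjusted p under 0.05. No K1 member was called with median centring over all probes (0.0566% of all genes were higher and 1.07% lower). The median change of the members was 0.185 without K1 Y15 replicate 1 and 0.37 without replicate 2. It was 0.297 without K1 untreated replicate 1 and 0.284 without replicate 2.
In BCPAP cells 3 members were called higher and 3 lower, against 8.65% and 7.6% of all genes tested, so that both counts lie near the share of all genes. The change was positive for 16 members (52.5% of all genes). The Y15 arrays lay above the untreated ones for 9 members (31.2% of all genes) and below them for 17 (27%). Median centring over all probes gave 4 higher calls and 0 lower (16.9% and 0.0485% of all genes).
Of the 18 members called higher in TPC1 and the 12 called higher in K1, 9 were called in both (3.25% of all genes were). These were PSMA1, PSMA5, PSMA6, PSMB2, PSMB3, PSMB7, PSMD2, PSMD12 and PSMD14, of the core, the base and the lid. By limma 0 members were called lower in both TPC1 and K1 (3.72% of all genes), 0 were called higher in all 3 lines (0.897%), and 12 were called in no line (57.5% of all genes). Across the 38 members, which are not independent replicates, the changes in TPC1 and K1 had a Pearson r of 0.70 and a Spearman rho of 0.73, and 35 had the same sign. The r was 0.08 for TPC1 and BCPAP and -0.11 for BCPAP and K1, with 17 and 14 of the same sign. Over all genes r was 0.60 for TPC1 and K1, 0.43 for TPC1 and BCPAP and 0.40 for BCPAP and K1. The members share the arrays of each line. Of the 38 calls of a member in a line, median centring over all probes kept 6, of PSMA2, PSMB7 and PSME1 in TPC1 and PSME1, PSMG2 and PSMG3 in BCPAP, and every other Y15 call of a member ended with it.

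**Figure D2:**
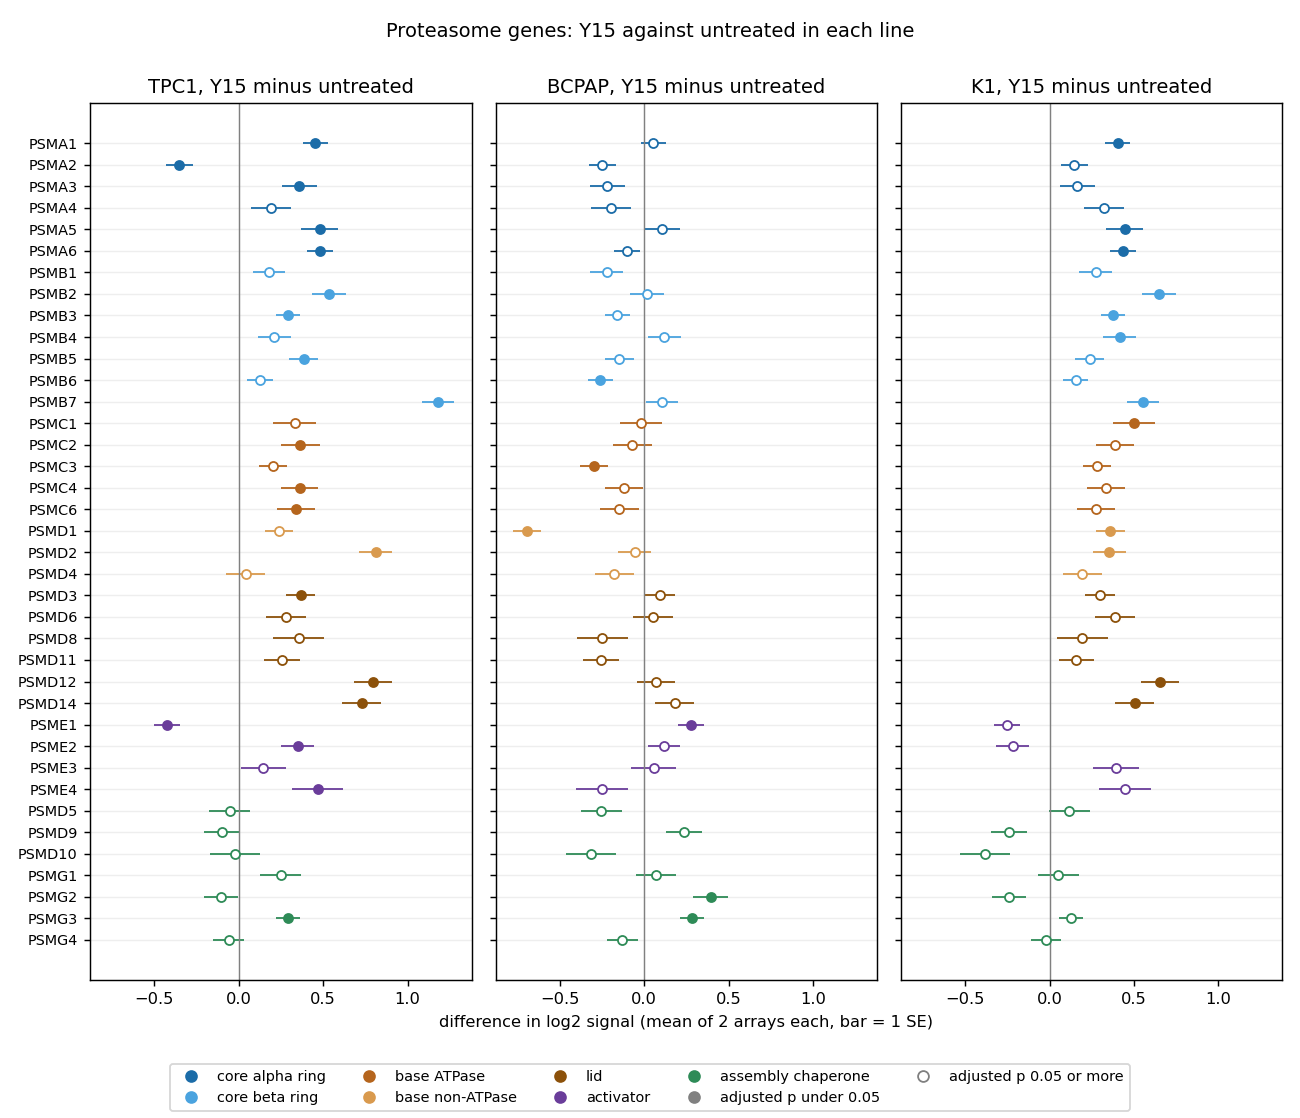
Difference in log2 signal of each of 38 proteasome genes, Y15 minus untreated, in TPC1, BCPAP and K1 (bars are 1 SE, n = 2 arrays in each group, filled points have an adjusted p under 0.05). Filled points lie right of 0 for 18 genes in TPC1 and 12 in K1, and in BCPAP 3 lie on each side.

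For 17 of 38 members the response to Y15 was not the same in each line (F test of limma with adjusted p under 0.05, 18.5% of all genes tested). Of these 10 were of the core, 4 of the regulatory particle, 2 were activators and 1 was a chaperone. Between TPC1 and BCPAP 15 members had a higher change in TPC1 and 2 a lower one, against 7.94% and 9.4% of all genes. Between TPC1 and K1 the counts were 2 and 1, against 3.98% and 4.17%. Between BCPAP and K1, 2 members had a higher change in BCPAP and 7 a lower one, against 4.36% and 2.88%. With median centring over all probes the F test called 3 members, for which the share of all genes with that scaling is not given here.

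The promoters of the members were searched for TGACNNNGC on both strands, the core of the antioxidant response element that NFE2L1 and NFE2L2 bind, within 250 bases before and 50 after the gene's start. RefSeq windows (GRCh38.p14) matched 33 of the 38 members tested, all except PSMB1, PSMB6, PSMB7, PSMD4 and PSMG3. The letters stood in a window of 13 of the 33 members (39.4%), against 16.1% of the 27305 genes with a window. Of the members called higher in TPC1, 6 of the 16 with a window had a match (37.5%), as did 7 of the 17 others (41.2%). Of those called higher in K1, 3 of 11 with a window had a match (27.3%). PSMA1, PSMA5, PSMA6, PSMB2, PSMD2 and PSMD14, called higher in both lines, had none. The sequences below are all of members with a match. By class 6 of 23 core and regulatory subunits (26.1%), 3 of 4 activators (75%) and 4 of 6 assembly chaperones (66.7%) had one. With the looser TGANNNNGC, which holds every TGACNNNGC, 22 members (66.7%) and 47.1% of all genes matched. The 250 bases before the start are shown for PSMB3 and PSMD12, called higher in TPC1 and K1, PSME1, called in opposite directions, and PSMD9, called in no line, with the match in capitals. They lie at chr17:38752491-38752740 (plus strand) for PSMB3, chr17:67366578-67366827 (minus strand) for PSMD12, chr14:24135944-24136193 (plus strand) for PSME1 and chr12:121888540-121888789 (plus strand) for PSMD9.
PSMB3: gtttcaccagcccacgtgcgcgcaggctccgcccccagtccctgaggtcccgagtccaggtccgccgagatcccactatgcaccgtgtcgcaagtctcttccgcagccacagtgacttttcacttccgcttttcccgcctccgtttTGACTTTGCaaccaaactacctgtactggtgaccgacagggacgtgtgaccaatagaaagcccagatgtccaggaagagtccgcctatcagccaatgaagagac
PSMD12: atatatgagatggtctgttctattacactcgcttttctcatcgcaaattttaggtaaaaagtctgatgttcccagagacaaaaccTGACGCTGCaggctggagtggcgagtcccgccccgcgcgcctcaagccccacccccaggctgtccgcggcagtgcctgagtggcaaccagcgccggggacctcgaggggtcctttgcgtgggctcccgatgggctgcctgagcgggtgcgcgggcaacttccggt
PSME1: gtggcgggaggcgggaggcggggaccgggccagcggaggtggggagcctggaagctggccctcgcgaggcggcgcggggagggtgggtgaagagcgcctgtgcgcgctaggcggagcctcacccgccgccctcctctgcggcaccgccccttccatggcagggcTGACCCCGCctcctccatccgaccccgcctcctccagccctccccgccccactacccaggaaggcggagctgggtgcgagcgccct
PSMD9: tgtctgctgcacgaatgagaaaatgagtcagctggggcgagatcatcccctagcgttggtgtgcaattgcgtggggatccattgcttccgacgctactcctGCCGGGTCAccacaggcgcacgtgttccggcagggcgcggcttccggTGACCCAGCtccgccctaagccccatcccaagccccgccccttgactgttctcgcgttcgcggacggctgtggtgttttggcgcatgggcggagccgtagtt
The match began 104 bases before the start in PSMB3, 165 in PSMD12 and 86 in PSME1, and PSMD9 held 2, on opposite strands, at 149 and 102 bases before it. A match describes the letters of the window and not a bound site.

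PSMB7, the beta subunit with trypsin-like activity, had the largest change of any member (gene at chr9:124353465-124415442, GRCh38.p14). In TPC1 it stood at 12.22 and 12.25 with Y15, against 10.99 and 11.11 untreated. In K1 it stood at 12.35 and 12.28 with Y15, against 11.64 and 11.89 untreated, and in BCPAP at 12.56 and 12.40 with Y15, against 12.33 and 12.40 untreated. The Y15 and untreated arrays were apart in TPC1 and K1 and touched in BCPAP. PSMB7 rose 2.27-fold in TPC1 (log2 change 1.18, SE 0.09, adjusted p = 5.26e-06 from limma) and by 0.55 in K1 (adjusted p = 0.00477), and had a change of 0.11 in BCPAP (adjusted p = 0.489). With median centring over all probes the PSMB7 changes were 0.74 in TPC1 and 0.69 in BCPAP, both called, and 0.29 in K1, not called. The change was larger in TPC1 than in K1 by 0.63 (95% interval 0.34 to 0.92, adjusted p = 0.015) and larger than in BCPAP by 1.07 (0.78 to 1.37, adjusted p = 0.00037).
The other beta subunits with cutting sites are PSMB5, of chymotrypsin-like activity, and PSMB6, of caspase-like activity. PSMB5 had signals of 11.35 and 11.50 with Y15 in TPC1, against 10.94 and 11.14 untreated, and was called higher there by 0.38 (adjusted p = 0.00559 from limma), though its change was -0.03 with median centring over all probes. In BCPAP it had 11.37 and 11.44 with Y15, against 11.58 and 11.52 untreated, and in K1 11.73 and 11.65 with Y15, against 11.46 and 11.44 untreated. Neither of these was called (adjusted p = 0.281 and 0.103). PSMB6 had 11.72 and 11.57 with Y15 in BCPAP, against 11.94 and 11.87 untreated, a fall of 0.26 (adjusted p = 0.0366) that was 0.27 in the other direction with median centring over all probes. Its changes of 0.13 in TPC1 and 0.15 in K1 were not called, and the F test called PSMB6 (adjusted p = 0.0285).

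**Figure D3:**
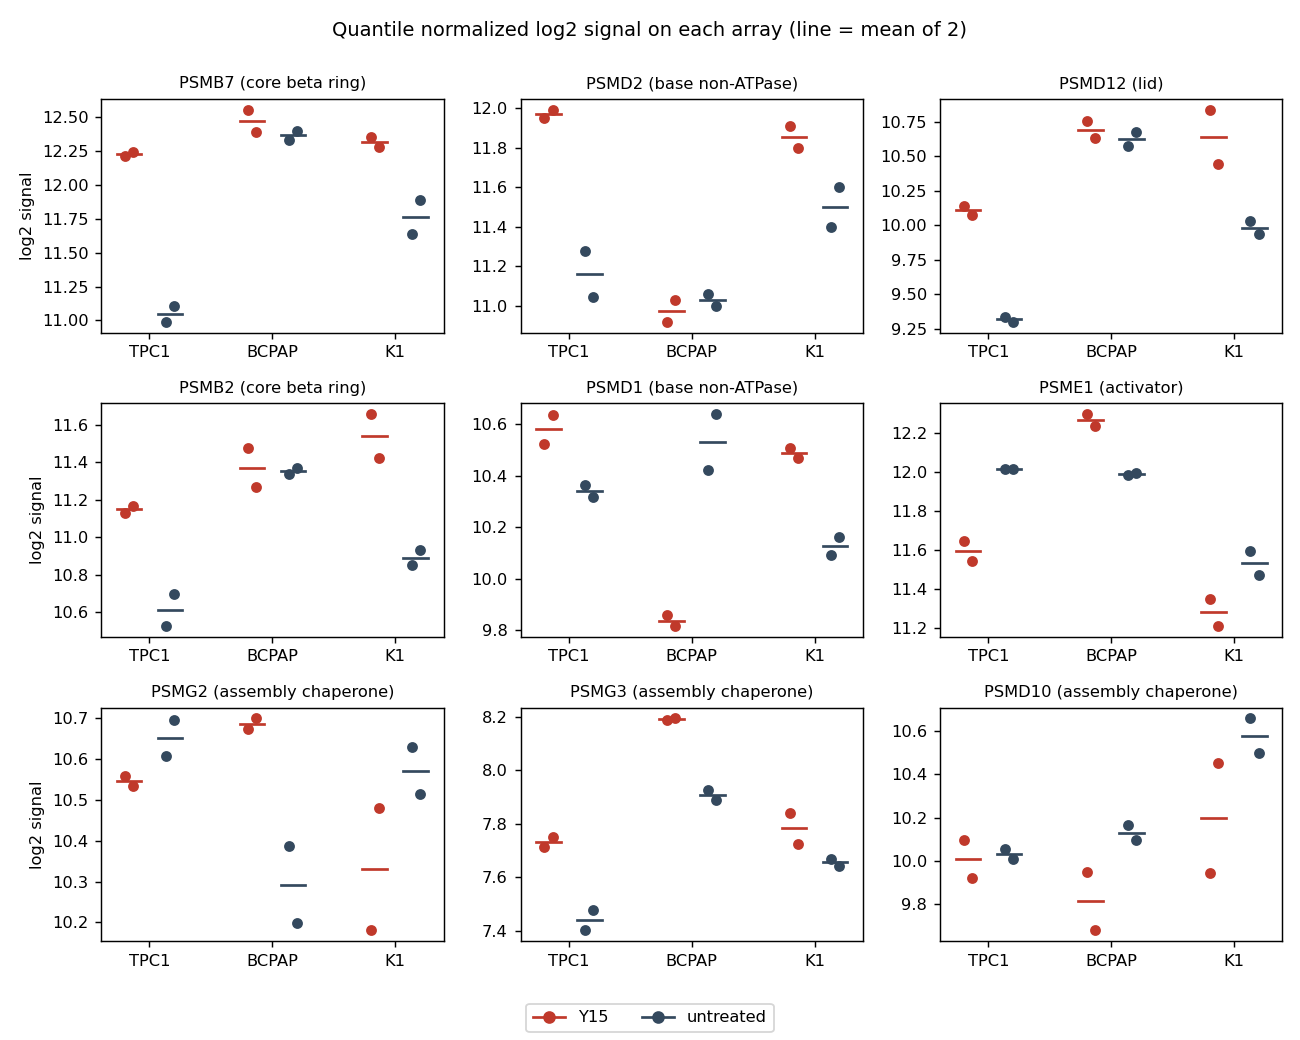
Quantile normalized log2 signal of 9 proteasome genes on each array (points) with the mean of 2 arrays (lines), with Y15 left of untreated within each line. PSMB7, PSMD2, PSMD12 and PSMB2 are higher with Y15 in TPC1 and K1 and overlap in BCPAP, PSMD1 is lower with Y15 in BCPAP, and PSME1 is lower in TPC1 and K1 and higher in BCPAP.

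Of the beta subunits without a cutting site, PSMB2 was called higher in TPC1 and in K1. Its signals were 11.13 and 11.17 with Y15 in TPC1, against 10.53 and 10.70 untreated. In K1 they were 11.66 and 11.42 with Y15, against 10.85 and 10.93 untreated. These were rises of 0.54 in TPC1 (adjusted p = 0.00191 from limma) and 0.65 in K1 (adjusted p = 0.00297), with an SE of 0.10. In BCPAP PSMB2 stood at 11.47 and 11.27 with Y15, around the 11.34 and 11.37 of untreated cells. PSMB3 had 11.86 and 11.91 with Y15 in TPC1, against 11.57 and 11.63 untreated, and 12.57 and 12.47 with Y15 in K1, against 12.18 and 12.11 untreated. It was called higher in both, by 0.29 and 0.37 (adjusted p = 0.00891 and 0.00827), and its TPC1 change was -0.13 with median centring over all probes. In BCPAP it had 12.29 and 12.24 with Y15, against 12.45 and 12.40 untreated, below them but not called (adjusted p = 0.161). PSMB4 was called in K1 alone, where it had 12.10 and 11.76 with Y15, against 11.52 and 11.50 untreated (adjusted p = 0.021). In TPC1 it had 11.59 and 11.66 with Y15, against 11.42 and 11.41 untreated, and in BCPAP 11.87 and 11.84 with Y15, against 11.76 and 11.70 untreated. The F test did not call PSMB4 (adjusted p = 0.277).

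Of the 6 alpha ring members tested, TPC1 had 4 called higher and 1 lower (15.3% and 16.1% of all genes were), 3 were called higher in K1 (4.62%), and 0 were called in BCPAP. PSMA6 had 12.37 and 12.40 with Y15 in TPC1, against 11.87 and 11.94 untreated. In BCPAP it had 12.83 and 12.82 with Y15, against 12.95 and 12.90 untreated, and in K1 12.83 and 12.67 with Y15, against 12.37 and 12.27 untreated. Its Y15 arrays were the higher ones in TPC1 and K1 and the lower ones in BCPAP. It rose by 0.48 in TPC1 (adjusted p = 0.00071) and 0.44 in K1 (adjusted p = 0.00557), and the change of -0.10 in BCPAP was not called. PSMA1 had 11.93 and 11.80 with Y15 in TPC1, against 11.46 and 11.37 untreated, and 12.18 and 12.11 with Y15 in K1, against 11.73 and 11.75 untreated. Its rises of 0.45 and 0.41 (adjusted p = 0.000791 and 0.00669) were shared by its second probe, of which the changes were 0.52 and 0.44. In BCPAP PSMA1 had 11.89 and 11.82 with Y15, against 11.80 on both untreated arrays. PSMA5 had 12.19 and 12.21 with Y15 in TPC1, against 11.70 and 11.75 untreated, and 12.40 and 12 with Y15 in K1, against 11.72 and 11.79 untreated. The rises were 0.48 (adjusted p = 0.00614) and 0.44 (adjusted p = 0.0266), and in BCPAP it had 12.12 and 12.14 with Y15, against 12.03 and 12.02 untreated. PSMA3 was called higher in TPC1 only, with 10.99 and 10.80 with Y15, against 10.48 and 10.59 untreated (0.36, adjusted p = 0.0211), a change that was -0.09 with median centring over all probes. It had 10.87 and 10.71 with Y15 in BCPAP, against 11.09 and 10.93 untreated, and 10.90 and 10.85 with Y15 in K1, against 10.82 and 10.60 untreated. Its second probe had a TPC1 change of 0.37 and was not called (adjusted p = 0.12 over all probes).
PSMA2 went against its ring in TPC1. It had 7.96 and 7.81 with Y15 there, against 8.30 and 8.17 untreated, a fall of 0.35 (adjusted p = 0.00598). BCPAP cells had 7.86 and 7.77 with Y15, against 8.07 and 8.06 untreated, not called (adjusted p = 0.0572), and in K1 8.15 and 8.19 with Y15, against 8.06 and 7.97 untreated. The change in TPC1 was lower than that in K1 by 0.50 (95% interval of TPC1 minus K1 from -0.75 to -0.25, adjusted p = 0.0207).

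Among the base ATPases, which unfold substrates and feed them into the core, 3 of 5 were called higher in TPC1 (15.3% of all genes were), 1 was called lower in BCPAP (7.6%) and 1 was called higher in K1 (4.62%). PSMC2 had 10.66 and 10.67 with Y15 in TPC1, against 10.32 and 10.28 untreated. PSMC4 had 9.62 and 9.57 with Y15 there, against 9.22 and 9.25 untreated, and PSMC6 11.13 and 10.93 with Y15, against 10.68 and 10.71 untreated. The 3 were called higher by 0.34 to 0.37 (adjusted p = 0.0299, 0.0289 and 0.0422 from limma), but with median centring over all probes their changes were -0.09, -0.12 and -0.10. In BCPAP PSMC2 had 10.86 and 10.93 with Y15, against 11.02 and 10.92 untreated, PSMC4 10.18 and 10.20 with Y15, against 10.26 and 10.36 untreated, and PSMC6 11.02 and 11.05 with Y15, against 11.23 and 11.13 untreated. In K1 PSMC2 had 11.64 and 11.21 with Y15, against 11.02 and 11.05 untreated, PSMC4 10.03 and 9.62 with Y15, against 9.44 and 9.54 untreated, and PSMC6 11.13 and 10.77 with Y15, against 10.75 and 10.61 untreated. Replicate 1 was the higher Y15 array of K1 for all 3, and none was called in BCPAP or K1. PSMC4 has 3 tested probes. Besides the probe used, 1 was called in TPC1 and K1 (changes 0.44 and 0.61, adjusted p = 0.0472 and 0.0281 over all probes) and 1 was not called. PSMC1 was called in K1, with 12.72 and 12.23 with Y15, against 11.91 and 12.04 untreated (0.50, adjusted p = 0.0288), while its second probe was not (0.27, adjusted p = 0.13 over all probes). In TPC1 PSMC1 had 12.23 and 12.27 with Y15, against 11.94 and 11.90 untreated, and in BCPAP 12.51 and 12.52 with Y15, against 12.50 and 12.57 untreated.
PSMC3 was called lower in BCPAP, with 10.95 and 10.89 with Y15, against 11.14 and 11.29 untreated (-0.30, adjusted p = 0.0318), a change that was 0.28 with median centring over all probes. It had 10.15 and 10.31 with Y15 in TPC1, against 9.99 and 10.07 untreated, and 10.78 and 10.81 with Y15 in K1, against 10.47 and 10.57 untreated, neither called. The F test called PSMC3 (adjusted p = 0.0107), with the change in BCPAP below that in TPC1 and below that in K1 (TPC1 minus BCPAP 0.50, BCPAP minus K1 -0.58).

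PSMD1 and PSMD2 are the large scaffold subunits of the base. PSMD1 (gene at chr2:231056867-231172827, GRCh38.p14) had the smallest p of any member for a difference between the lines (adjusted p = 0.000278, F test of limma). BCPAP cells had 9.86 and 9.82 with Y15, against 10.42 and 10.64 untreated. In TPC1 it had 10.52 and 10.64 with Y15, against 10.37 and 10.32 untreated, and in K1 10.51 and 10.47 with Y15, against 10.09 and 10.16 untreated. The Y15 arrays lay apart from the untreated ones in each line, below them in BCPAP and above them in TPC1 and K1. PSMD1 fell 1.62-fold in BCPAP (log2 change -0.69, SE 0.08, adjusted p = 0.000456), rose by 0.36 in K1 (adjusted p = 0.0211), and had a change of 0.24 in TPC1 (adjusted p = 0.0515). The BCPAP change with median centring over all probes was -0.13 and was not called. The change in BCPAP was below that in K1 by 1.05 (BCPAP minus K1, 95% interval -1.31 to -0.79) and below that in TPC1 by 0.93 (TPC1 minus BCPAP, 0.67 to 1.19).
PSMD2 had 11.95 and 11.99 with Y15 in TPC1, against 11.28 and 11.05 untreated. In K1 it had 11.91 and 11.80 with Y15, against 11.40 and 11.60 untreated, and in BCPAP 10.92 and 11.03 with Y15, against 11.06 and 11.00 untreated. It rose 1.75-fold in TPC1 (0.81, SE 0.10, adjusted p = 0.000103) and by 0.36 in K1 (adjusted p = 0.0417), and its change in BCPAP was -0.06. Median centring over all probes gave PSMD2 changes of 0.36 for TPC1, 0.54 for BCPAP and 0.10 for K1, none of them called. TPC1 minus K1 was 0.45 (95% interval 0.15 to 0.76) and did not pass the threshold (adjusted p = 0.0702).

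In the lid, PSMD12 and PSMD14 were called in TPC1 and K1 and PSMD3 in TPC1. PSMD12, a scaffold subunit, had 10.14 and 10.07 with Y15 in TPC1, against 9.34 and 9.30 untreated. It had 10.84 and 10.44 with Y15 in K1, against 10.03 and 9.94 untreated, and 10.75 and 10.63 with Y15 in BCPAP, against 10.58 and 10.68 untreated. It rose 1.73-fold in TPC1 and 1.58-fold in K1 (0.79 and 0.66, SE 0.11, adjusted p = 0.000316 and 0.00478), and these changes differed by 0.14, with a 95% interval of -0.21 to 0.49. PSMD14, the deubiquitinase of the lid, had 11.00 and 10.96 with Y15 in TPC1, against 10.23 and 10.27 untreated. In K1 it had 11.02 and 10.67 with Y15, against 10.47 and 10.20 untreated, and in BCPAP 10.71 and 10.65 with Y15, against 10.54 and 10.45 untreated. All Y15 arrays of PSMD14 lay above the untreated arrays of their line, and it was called in TPC1 (0.73, adjusted p = 0.00062) and K1 (0.50, adjusted p = 0.0191), with 0.18 in BCPAP (adjusted p = 0.324). PSMD3 had 7.86 and 7.88 with Y15 in TPC1, against 7.42 and 7.60 untreated, a rise of 0.37 (adjusted p = 0.00789). It had 8.21 and 8.07 with Y15 in BCPAP, against 8.08 and 8.02 untreated, and 7.67 and 7.52 with Y15 in K1, against 7.31 and 7.27 untreated (adjusted p = 0.051).
The remaining subunits, PSMA4, PSMB1, PSMD4, PSMD6, PSMD8 and PSMD11, were called in no line. Their changes ran from 0.04 for PSMD4 to 0.35 for PSMD8 in TPC1, from -0.25 for PSMD11 to 0.05 for PSMD6 in BCPAP, and from 0.16 for PSMD11 to 0.39 for PSMD6 in K1. PSMB1 was called by the F test (adjusted p = 0.049). The second probe of PSMD6 was called higher in K1 (0.50, adjusted p = 0.0241 over all probes). Of the 13 members with other tested probes, 16 such probes in all, the sign was that of the probe used for 16 in TPC1, 14 in BCPAP and 14 in K1.

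Among the activators, PSME1 and PSME2 form 1 ring that is known to be induced by interferon gamma. With quantile normalization their changes had opposite signs in TPC1 and the same sign in BCPAP and in K1. With median centring over all probes both changes were negative in TPC1. PSME1 (gene at chr14:24136194-24138962, GRCh38.p14) had 11.64 and 11.54 with Y15 in TPC1, against 12.02 on both untreated arrays. BCPAP cells had 12.30 and 12.24 with Y15, against 11.98 and 11.99 untreated, and in K1 11.35 and 11.21 with Y15, against 11.59 and 11.47 untreated. Its Y15 arrays lay below the untreated ones in TPC1 and K1 and above them in BCPAP. PSME1 fell by 0.42 in TPC1 (SE 0.08, adjusted p = 0.00176), rose by 0.28 in BCPAP (adjusted p = 0.033), and had a change of -0.25 in K1 (adjusted p = 0.0643). These effects differed between the lines (adjusted p = 0.00322, F test of limma). Its second probe, with a mean log2 signal of 7.08, was called in no line, and the BCPAP call was lost with neqc background correction and without any one of 6 arrays.
PSME2, whose gene lies beside it (chr14:24143365-24146610), had 11.17 and 11.22 with Y15 in TPC1, against 10.81 and 10.88 untreated. It was called higher there by 0.35 (adjusted p = 0.0178), a change that was -0.06 with median centring over all probes. BCPAP cells had 11.87 and 11.62 with Y15, against 11.59 and 11.67 untreated, and in K1 10.96 and 11.07 with Y15, against 11.33 and 11.13 untreated, neither called. The change was higher in TPC1 than in K1 by 0.57 (95% interval 0.26 to 0.87, adjusted p = 0.0279). PSME3, a nuclear activator, had 9.23 and 9.20 with Y15 in TPC1, against 9.06 and 9.08 untreated. BCPAP cells had 9.66 and 9.88 with Y15, against 9.77 and 9.66 untreated, and in K1 9.49 and 9.97 with Y15, against 9.26 and 9.41 untreated. It was called in no line. PSME4, an activator of a single large chain, had 9.72 and 9.68 with Y15 in TPC1, against 9.32 and 9.15 untreated, and rose by 0.47 (adjusted p = 0.0374). It had 9.30 and 9.61 with Y15 in BCPAP, against 9.81 and 9.60 untreated, and 9.98 and 9.47 with Y15 in K1, against 9.29 and 9.26 untreated (adjusted p = 0.0875).

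Of the 7 assembly chaperones 1 was called higher in TPC1, 2 in BCPAP and 0 in K1 (15.3%, 8.65% and 4.62% of all genes were), and 0 were called lower in any line. PSMG2, which pairs with PSMG1 to build the alpha ring, had 10.67 and 10.70 with Y15 in BCPAP, against 10.39 and 10.20 untreated. In TPC1 it had 10.56 and 10.54 with Y15, against 10.61 and 10.70 untreated, and in K1 10.18 and 10.48 with Y15, against 10.63 and 10.51 untreated. It rose by 0.39 in BCPAP (adjusted p = 0.0237), with changes of -0.11 in TPC1 and -0.24 in K1 that were not called, and the effect differed between the lines (adjusted p = 0.0223). The BCPAP call of PSMG2 was lost with neqc background correction and with the replicate number as a block. Its partner PSMG1 had 10.19 and 10.09 with Y15 in TPC1, against 10.00 and 9.79 untreated. BCPAP cells had 10.61 and 10.52 with Y15, against 10.50 and 10.49 untreated, and in K1 9.83 and 10.23 with Y15, against 10.04 and 9.92 untreated. It was called in no line, while its second probe was called higher in TPC1 (0.28, adjusted p = 0.0499 over all probes).
PSMG3 was the only chaperone called in 2 lines. It had 7.71 and 7.75 with Y15 in TPC1, against 7.40 and 7.48 untreated, and 8.19 and 8.20 with Y15 in BCPAP, against 7.93 and 7.89 untreated. In K1 it had 7.84 and 7.72 with Y15, against 7.67 and 7.64 untreated. It rose by 0.29 in TPC1 and 0.29 in BCPAP (adjusted p = 0.00843 and 0.0187), and the F test did not call it (adjusted p = 0.387). The BCPAP call of PSMG3 was lost with centring over probes above background on all arrays. PSMG4, its partner, had 9.14 and 9.20 with Y15 in TPC1, against 9.16 and 9.31 untreated, 9.60 and 9.63 with Y15 in BCPAP, against 9.69 and 9.80 untreated, and 8.95 and 9.19 with Y15 in K1, against 9.09 and 9.10 untreated. None of these was called.
PSMD5, PSMD9 and PSMD10, the chaperones of the base, were called in no line. PSMD10 had 9.95 and 9.68 with Y15 in BCPAP, against 10.16 and 10.09 untreated, and 9.94 and 10.45 with Y15 in K1, against 10.66 and 10.50 untreated. In TPC1 it had 10.10 and 9.92 with Y15, around the 10.05 and 10.01 of untreated cells. Its changes of -0.32 in BCPAP and -0.38 in K1 had an SE of 0.15, and a second probe was called lower in both (-0.51 and -0.40, adjusted p = 0.00857 and 0.0378 over all probes), while its remaining probe was not. PSMD9 had 7.24 and 7.21 with Y15 in TPC1, against 7.27 and 7.38 untreated, 7.73 and 7.52 with Y15 in BCPAP, against 7.45 and 7.33 untreated, and 7.36 and 7.65 with Y15 in K1, against 7.79 and 7.71 untreated. PSMD5 had 7.95 and 7.96 with Y15 in TPC1, against 8.03 and 7.99 untreated, 7.78 and 7.69 with Y15 in BCPAP, against 7.92 and 8.06 untreated, and 7.70 and 8.16 with Y15 in K1, against 7.82 and 7.80 untreated. Of the Y15 arrays of K1, replicate 2 was the higher for every chaperone except PSMG3.

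**Figure D4:**
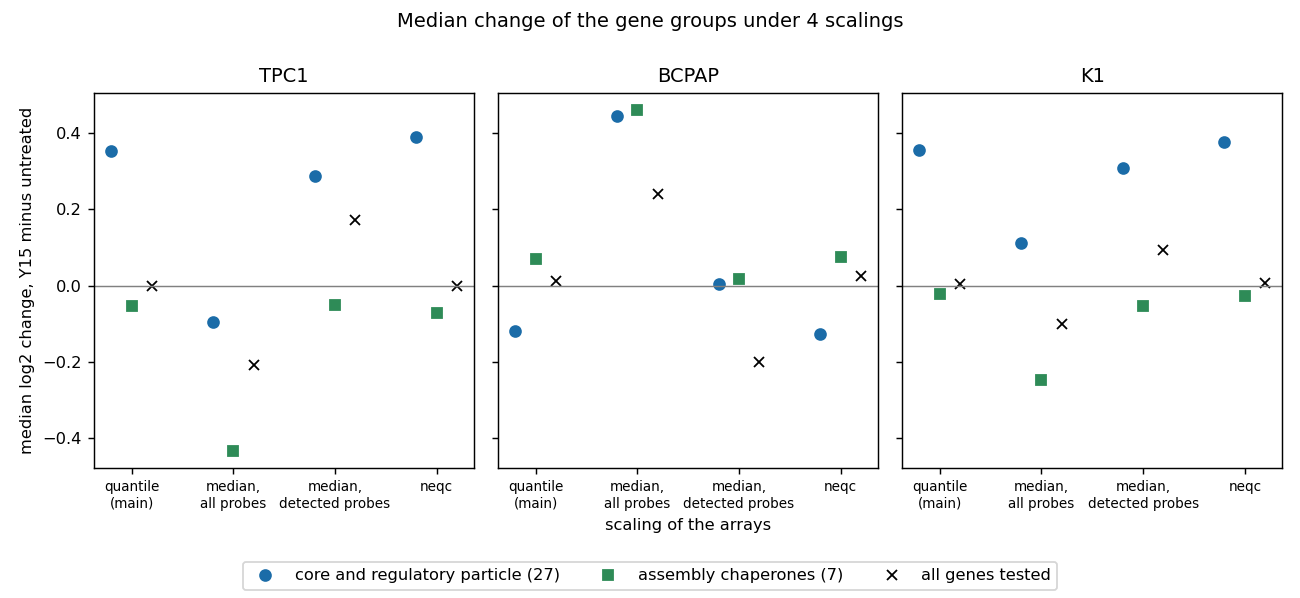
Median log2 change, Y15 minus untreated, of the 27 core and regulatory subunits, the 7 assembly chaperones and all genes tested, in each line under 4 scalings of the arrays. The subunits lie above the chaperones by 0.34 to 0.46 in TPC1 and 0.36 to 0.41 in K1, and differ from them by -0.20 to -0.02 in BCPAP. Both median centrings shift each array by a constant, so that their distances are the same by construction and are not separate checks. The subunit medians of TPC1 and BCPAP change sign with the scaling.

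Of the 38 members, 27 were called lower and 1 higher in untreated TPC1 than in untreated BCPAP, against 24.9% and 28.1% of all genes. In untreated TPC1 against untreated K1, 14 were lower and 2 higher, against 17.6% and 20%. In untreated BCPAP against untreated K1, 21 were higher and 4 lower, against 23.5% and 24.7%. The median member was at -0.48 for TPC1 minus BCPAP, -0.16 for TPC1 minus K1 and 0.29 for BCPAP minus K1. With median centring over all probes these became 0.22, -0.20 and -0.38, where all genes tested stood at 0.37, 0.03 and -0.34. The members called became 2 lower and 7 higher in TPC1 against BCPAP, and 2 lower and 0 higher in TPC1 against K1. In BCPAP against K1 they became 0 higher and 8 lower. The shares of all genes called with this scaling are not given here. Relative to all genes the members were lower in TPC1 than in BCPAP by 0.50 with quantile normalization and by 0.15 with median centring. In the same order TPC1 minus K1 stood at -0.17 and -0.23. BCPAP minus K1 stood at 0.30 and -0.04, and so changed sign.
With quantile normalization the 5 members with the largest differences between untreated lines were PSMB7, PSMD12, PSMC3, PSMC4 and PSMA6, all between TPC1 and BCPAP. PSMB7 was 2.49-fold lower in untreated TPC1 (log2 difference -1.32, 95% interval -1.53 to -1.11, adjusted p = 4.53e-07 from limma). PSMD12 was 2.48-fold lower (-1.31, adjusted p = 2e-06), and PSMC3, PSMC4 and PSMA6 were lower by 1.19, 1.07 and 1.02. With median centring over all probes 2 of all 38 members were called lower in untreated TPC1 than in BCPAP. At most 2 of these 5 thus kept their call. With quantile normalization untreated TPC1 was the lowest of the 6 groups for 25 of 38 members. The highest group was untreated BCPAP for 10, K1 with Y15 for 10 and BCPAP with Y15 for 9. For PSMB7 the order of the group means was BCPAP with Y15, untreated BCPAP, K1 with Y15, TPC1 with Y15, untreated K1 and untreated TPC1, in which the arrays of untreated BCPAP overlapped with those of BCPAP with Y15 and of K1 with Y15, and no other neighbours overlapped. The same untreated arrays enter the differences between lines and the changes with Y15.

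Other genes of the pathway were taken from lists, of which 30 of 37 genes were tested. Their changes are given with quantile normalization only and were not followed under other scalings. With median centring over all probes the median of all genes tested shifted by -0.21 in TPC1 and 0.24 in BCPAP. Of 12 subunits or partners outside the PSM symbols, 5 were called higher in TPC1, 1 in BCPAP and 3 in K1 (15.3%, 8.65% and 4.62% of all genes were), and 0 lower. POMP, the chaperone that completes the beta rings, had 12.08 and 12.17 with Y15 in TPC1, against 11.55 and 11.68 untreated, and rose by 0.51 there and by 0.36 in K1 (adjusted p = 0.00154 and 0.0297), with 0.05 in BCPAP (adjusted p = 0.75). ADRM1, a ubiquitin receptor of the base, rose by 0.63 in TPC1 and 0.64 in K1 (adjusted p = 0.0122 and 0.0301). In K1 it had 11.37 and 10.68 with Y15, against 10.38 and 10.40 untreated, so that replicate 1 carried most of that difference. UBE3C, a ubiquitin ligase bound to the proteasome, rose by 0.21 in TPC1 and 0.28 in K1 (adjusted p = 0.041 and 0.0293). ZFAND2A, a stress-induced partner of the proteasome, rose by 1.12 in TPC1 and 0.84 in BCPAP (adjusted p = 0.000541 and 0.0076).
Of the 6 genes tested that act in the induction of proteasome genes, TPC1 had 2 called higher and 1 lower (15.3% and 16.1% of all genes were), and there were 3 higher in BCPAP (8.65%) and 0 in K1 (4.62%). NFE2L1 had 9.97 and 10.04 with Y15 in TPC1, against 8.93 and 9.05 untreated. It had 10.02 and 10.06 with Y15 in BCPAP, against 9.35 and 9.22 untreated, and 10.33 and 9.57 with Y15 in K1, against 9.38 and 9.41 untreated. The Y15 arrays were the higher ones in each line, by 1.01 in TPC1 (adjusted p = 0.0013), by 0.75 in BCPAP (adjusted p = 0.0158) and, without a call, by 0.56 in K1 (adjusted p = 0.0712). MAFF, a small partner of NFE2L1 on DNA, rose by 1.23 in TPC1 and 0.65 in BCPAP (adjusted p = 0.000108 and 0.0138). NFE2L2, its relative in the oxidative stress response, fell by 0.26 in TPC1 (adjusted p = 0.0468) and rose by 0.41 in BCPAP (adjusted p = 0.0115).
Of the 7 genes tested for delivery of substrates, FAF1 was called higher in TPC1 (15.3% of all genes were) and RAD23B lower in BCPAP (7.6%), and of UBB and UBA1 neither was called. Of the 3 immunoproteasome subunits, PSMB8 and PSMB10 were called higher in BCPAP (8.65% of all genes were). They rose by 0.32 and 0.39 (adjusted p = 0.0325 and 0.00889 from limma). PSMB9 was not called there, with a change of -0.04 (adjusted p = 0.795). Of PSME1 and PSME2 above, PSME1 alone was called higher in BCPAP. PSMB9 was called lower in TPC1 (log2 change -0.26, adjusted p = 0.0462), where 16.1% of all genes were.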

How the data were processed

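Total RNA of TPC1, BCPAP and K1 cells, untreated or with 10 µM Y15 for 24 hours, was hybridised to Illumina bead arrays (12 arrays, 2 in each of 6 groups by the labels). For every probe, a signal intensity and a detection p-value from GenomeStudio were deposited without normalization, beside a table of log2 values that the authors had quantile normalized. Recomputed values differed from the deposited log2 values by at most 5.0e-09. Of 47323 probes, 12 held no values. The platform annotation gave 1 symbol for 30109 probes, several for 8 and none for 17194.
The signals were put on a log2 scale and then quantile normalized. A probe was tested if its detection p was under 0.05 on both arrays of at least 1 group, and a gene was represented by its probe of highest mean signal. Groups were compared with limma 3.58.1 in R 4.3.3 over all 12 arrays without covariates, with Benjamini-Hochberg adjustment over 12378 genes, and the difference in the Y15 effect between lines with its F test. The script was tested on simulated data with known changes. The number of arrays limits the precision. The 38 members tested include 19 with pseudogenes in the annotation, which a probe may also bind.
Values per array were given for members called in any line with at least a 1.2-fold change, the 3 with the smallest F test p, the assembly chaperones, the PSME genes and the 5 with the largest difference between untreated lines. The members, lists and classes were chosen with earlier results of these data known. Alternatives were other scalings, filters, probe rules, fits and call rules, and leaving out each array. Same-numbered replicates did not deviate together (correlations of 0.193 for TPC1, -0.182 for BCPAP and -0.01 for K1) and were not paired.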

Additional observations from a re-analysis of the deposited data

Results flagged for a closer look

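For 17 proteasome genes the response to Y15 was not the same in TPC1, BCPAP and K1 cells by the F test of limma, and each is given here with its adjusted p. In PSMD1, which fell in BCPAP and rose in K1, it was 0.000278. In PSMB7 it was 0.000988, in PSMD2 0.00452 and in PSMD12 0.0177, each with its largest change in TPC1 under quantile normalization. With median centring over all probes the largest change of PSMD2 was that in BCPAP. In PSME1, with a fall in TPC1 and a rise in BCPAP, it was 0.00322, and in PSME2 0.0361. Among the alpha subunits it was 0.00595 in PSMA6, 0.0212 in PSMA2, 0.0352 in PSMA1 and 0.0411 in PSMA3. Among the other beta subunits it was 0.00761 in PSMB3, 0.0195 in PSMB2, 0.0251 in PSMB5, 0.0285 in PSMB6 and 0.049 in PSMB1. In PSMC3 it was 0.0107, and in the chaperone PSMG2 it was 0.0223. The same test called 18.5% of all genes tested, and with median centring over all probes it called 3 of the members. The share of all genes with that scaling is not given here.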

How the results depend on the processing

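With median centring over all probes 1 member was called higher in TPC1 (1.82% of all genes) and 0 in K1 (0.0566%), and 0 were called lower in BCPAP (0.0485%). The median changes were -0.11 in TPC1 cells, 0.46 for BCPAP and 0.046 for K1. The F test then called 3, and its share of all genes is given for the main fit only (18.5%). Of the 38 calls, 6 were kept (PSMA2, PSMB7 and PSME1 in TPC1, PSME1, PSMG2 and PSMG3 in BCPAP), 23 ended and 9 changed sign, none with a call in the other direction, where the median of all genes tested had shifted by -0.21 in TPC1 and 0.24 in BCPAP. Those 9 were, in TPC1, PSMA3 -0.092, PSMB3 -0.13, PSMB5 -0.031, PSMC2 -0.093, PSMC4 -0.12, PSMC6 -0.10 and PSME2 -0.0615, and in BCPAP PSMB6 0.27 and PSMC3 0.28. Of untreated lines, 0 and 2 members were then called higher and lower in TPC1 than K1, 7 and 2 in TPC1 than BCPAP, and 0 and 8 in BCPAP than K1. Leaving out the dimmest array as well, an alternative chosen after seeing the data, left 1 untreated BCPAP array. The median changes were then -0.11 in TPC1, 0.12 in BCPAP and 0.046 in K1, where all genes tested stood at -0.21, 0.07 and -0.10. In TPC1 PSMB6 stood at -0.29 and PSMD4 at -0.39. The median member of untreated TPC1 minus BCPAP was -0.165, with all genes at 0.198. For BCPAP minus K1 it was -0.013, with all genes at -0.164.
Centring over probes above background on all arrays gave 11 higher calls in TPC1 (17.7% of all genes), 1 lower in BCPAP (13.2%) and 2 higher in K1 (1.6%). The BCPAP median was then 0.019, the F test called 7, and 0 were higher in untreated TPC1 than K1. With neqc background correction, 1 was called higher and 1 lower in BCPAP (7.81% and 6.11% of all genes), and 5 higher in K1 (2.59%). The F test then called 5, 2 were lower in untreated BCPAP than K1, and the TPC1 median was 0.34. The BCPAP median was -0.055 with no filter on dim probes. The K1 arrays alone gave 0 higher calls, where 0% of all genes were called. The TPC1 arrays alone gave 27 higher calls in TPC1 (46.2% of all genes in either direction), as did array weights (22.8% higher). An unadjusted p under 0.05 with 1.2-fold gave 22 higher and 1 lower in K1 (8.64% and 9.73%). In untreated TPC1 against K1, 5 were higher with array weights and 1 with the mean of a gene's probes. For the F test and the untreated lines the shares of all genes under these alternatives are not given here. The cause of these differences was not tested. The looser promoter motif matched 22 members in place of 13.
With the replicate number as a block, 1 was called higher and 1 lower in BCPAP (6.71% and 5.94% of all genes), and 29 of 38 calls were kept. Pairing the BCPAP replicates the other way round, chosen after seeing the data, gave 3 higher and 2 lower calls there (8.38% and 7.82% of all genes).
Leaving out 1 array gave 8 to 26 higher calls, 1 to 2 lower and medians of 0.27 to 0.32 in TPC1. In BCPAP it gave 0 to 4 higher (0 without either Y15 array or without untreated replicate 2), 1 to 6 lower and medians of -0.10 to -0.069. In K1 it gave 3 to 20 higher, 0 to 3 lower and medians of 0.18 to 0.37. The F test called 8 to 31. Of untreated lines it gave 1 to 5 higher and 9 to 17 lower for TPC1 against K1, 0 to 1 and 23 to 28 for TPC1 against BCPAP, and 14 to 25 and 1 to 4 for BCPAP against K1. The dim array, with fewer probes above background, limits values of dim genes.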
